A study of Mus musculus with 4 samples.

Results

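The transcription factors described here are 10 genes of the naive pluripotent state: Nanog, Zfp42, Klf2, Klf4, Klf5, Tbx3, Tfcp2l1, Nr0b1, Nr5a2 and Gbx2. They were chosen by name, with earlier results of these data known. Among the 47885 rows of a table of read counts, each name matched 1 row. Tallies of the list beside all genes therefore describe it and are no test. The libraries came from 4 whole mouse embryos (strain C57BL/6, embryonic day 5.5, 1 embryo per library), 2 labelled Mettl14+/+ (WT) and 2 labelled Mettl14-/- (KO). After sequencing, a qPCR of Mettl14 on leftover amplified cDNA set the genotype, and embryos that expressed the gene were classed as controls, so heterozygous embryos may be among the WT. Both groups share the strain, the age and the amplification kit, and no Cre driver or treatment other than the knockout is named.

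Naive pluripotency is the state of the epiblast before implantation, and of mouse embryonic stem cells grown with LIF. A network of transcription factors around Oct4 (Pou5f1) and Sox2 holds it, fed by LIF-STAT3 and WNT signals, and it is taken down as the epiblast forms a cup-shaped epithelium after implantation. Mettl14 works with the catalytic subunit Mettl3 to methylate adenosines of mRNA (N6-methyladenosine, m6A), a mark that can shorten the life of a transcript. In embryonic stem cells, loss of that complex is known to hinder the exit from the naive state. The study asked how embryos without Mettl14 differ from controls before they can be told apart by shape.

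At this stage several of the 10 factors are not limited to the epiblast. Zfp42 and Klf5 are also known from trophoblast, Nr5a2 from visceral endoderm, and Klf2 and Klf4 from endothelium and from the immediate early response of many cells. Each library held epiblast, extraembryonic ectoderm and visceral endoderm in unknown proportions. In such bulk samples fewer cells of a type and less RNA per cell cannot be told apart.

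The targeted gene, Mettl14, stood at 34.0 and 31.6 CPM (read counts scaled to the TMM-adjusted library size) in WT replicates 1 and 2 and at 4.63 and 8.04 CPM in KO replicates 1 and 2, but it was also the basis of the classing. Depth ran from 16108062 to 28698541 counts, and 1 count equalled between 0.0359 and 0.059 CPM. Pearson correlations of log2 CPM between embryos ran from 0.879 (WT replicate 1 with KO replicate 2) to 0.943 (the WT embryos), and KO replicate 1 was about as close to the WT embryos (0.93 and 0.925) as to KO replicate 2 (0.923). Defining markers of the epiblast (Pou5f1, Tdgf1, Fgf5), the extraembryonic ectoderm (Elf5, Cdx2, Eomes) and the visceral endoderm (Ttr, Hnf4a, Amn) had counts in all 4 embryos. Blood and immune markers summed to 3.24 and 2.89 CPM in WT, against 3.73 and 4.92 CPM in KO; 3 of 7 were tested, all 3 with higher values in KO, and 0 passed.

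Because the missing protein acts on RNA, the GGACT matches in 3 factors whose KO embryos both lay above both WT embryos are shown. GGACT (capitals) is the most common core of the motif that the Mettl3-Mettl14 complex methylates. A match is only a match: no m6A was measured here. The sequences are from the longest GENCODE M21 transcript of each gene, read 5′ to 3′ on the strand of the gene, on mm10.
Klf2, coding sequence in exon 2, chr8:72319485-72319489, plus strand: acaacgtgttGGACTtcatcctctc
Nanog, coding sequence in exon 2, chr6:122711685-122711689, plus strand: cagaagatgcGGACTgtgttctctc
Nanog, coding sequence in exon 4, chr6:122713396-122713400, plus strand: acttcggggaGGACTttctgcagcc
Nanog, 3′ UTR, chr6:122714043-122714047, plus strand: agcaaacctaGGACTtagaacatgc
Nanog, 3′ UTR, chr6:122714594-122714598, plus strand: gatgccagctGGACTagtttaaaca
Zfp42, 5′ UTR, chr8:43304549-43304553, minus strand: ttagagaaatGGACTaagagctggg
Zfp42, 3′ UTR, chr8:43295348-43295352, minus strand: aaggggatggGGACTtttgcatacg

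GGACT density varied among the factors. Klf2, with the smallest p of the 10, held 1 match in 1847 bases, or 0.54 per kb, higher than in 19.8% of 13226 tested coding genes. Nr0b1 held 0 matches, as did 7.02% of those genes. Nr5a2 held 11 (2.32 per kb) and Tfcp2l1 16 (1.73 per kb), where the median gene had 1.04 per kb. The other factors ran from 0.89 per kb (Klf5) to 1.81 per kb (Nanog).

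The upstream DNA of the same 3 factors shows how differently they begin. RefSeq windows of 250 bases before the start (GRCm38.p6) were found for 8 of the 10 factors in 10 windows, and none for Klf5 and Tbx3. Both strands were searched for TTTGCAT (the octamer part bound by Oct4), ACAATG (SOX), CCACCC (the CACCC box of KLF factors), GGGCGG (the GC box of SP and KLF factors) and TATAAA (the TATA box), and for the MEF2 consensus. Capitals mark every match. Bases inside the GENCODE gene are left out, among them a CACCC box of Klf2 that starts 19 bases before the RefSeq start.
Nanog, chr6:122707239-122707488, plus strand: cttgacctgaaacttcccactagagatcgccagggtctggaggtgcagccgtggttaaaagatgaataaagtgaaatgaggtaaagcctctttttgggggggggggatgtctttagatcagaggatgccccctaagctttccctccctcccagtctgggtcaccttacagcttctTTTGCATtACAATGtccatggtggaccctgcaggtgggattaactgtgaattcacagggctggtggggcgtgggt
Zfp42, chr8:43307010-43307259, minus strand: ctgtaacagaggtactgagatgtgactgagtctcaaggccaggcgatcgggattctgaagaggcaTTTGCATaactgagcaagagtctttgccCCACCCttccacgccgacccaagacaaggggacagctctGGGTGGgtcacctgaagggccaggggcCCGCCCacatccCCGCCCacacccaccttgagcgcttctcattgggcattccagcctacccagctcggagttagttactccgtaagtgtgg
Klf2, chr8:72318812-72319032, plus strand: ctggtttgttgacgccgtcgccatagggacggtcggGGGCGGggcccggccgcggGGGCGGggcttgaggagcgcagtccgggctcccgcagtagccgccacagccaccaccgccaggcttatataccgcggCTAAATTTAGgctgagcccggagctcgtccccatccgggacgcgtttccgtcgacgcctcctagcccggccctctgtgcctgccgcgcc

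In the Nanog window an octamer match and a SOX match lay 1 base apart, the arrangement known as the Oct4-Sox2 element of this promoter. Octamer matches were in windows of Nanog and Zfp42, and in 4.12% of all 32851 windows; SOX matches were in windows of Nanog alone among the 8 factors, and in 10.7% of all. The Klf2 window held 2 GC boxes and a match to the MEF2 consensus, which starts 118 bases before the RefSeq start and was in 2.92% of all windows. The MEF2 motif was added after this window was seen, so its match there was known in advance. CACCC boxes were in windows of 5 of the 8 factors (28.1% of all windows), GC boxes in windows of Klf2, Klf4, Zfp42 and Gbx2 (32.7%) and TATA boxes in windows of Tfcp2l1, Nr0b1 and Nr5a2 (12.4%).

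Per exon length, the factors had widely different levels in the control embryos. Zfp42 (Rex1), a zinc finger factor used as a marker of the naive state, led with 56.2 ± 4.59 CPM per kb (SD, n = 2), above 92.2% of tested genes. Klf5, a Kruppel-like factor needed for the inner cell mass and trophectoderm, followed at 9.43 ± 0.603 CPM per kb, and Klf2 at 4.32 ± 0.966. Then came Nr0b1 (2.97 ± 0.737), Tfcp2l1 (1.91 ± 0.854), Nanog (1.55 ± 0.741), Gbx2 (1.39 ± 0.159), Klf4 (1.01 ± 0.109) and Tbx3 (0.586 ± 0.438 CPM per kb). Nr5a2 was last, with 1 count in WT replicate 1 and 0 in WT replicate 2.

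In that order, the WT values of Nr0b1 and Tfcp2l1, of Tfcp2l1 and Nanog, and of Nanog and Gbx2 overlapped between neighbours, and those of the other neighbours did not. In KO embryos Klf2, at 16.2 ± 1.50 CPM per kb, stood beside Klf5, at 13.3 ± 5.70, and their values overlapped.

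**Figure D1:**
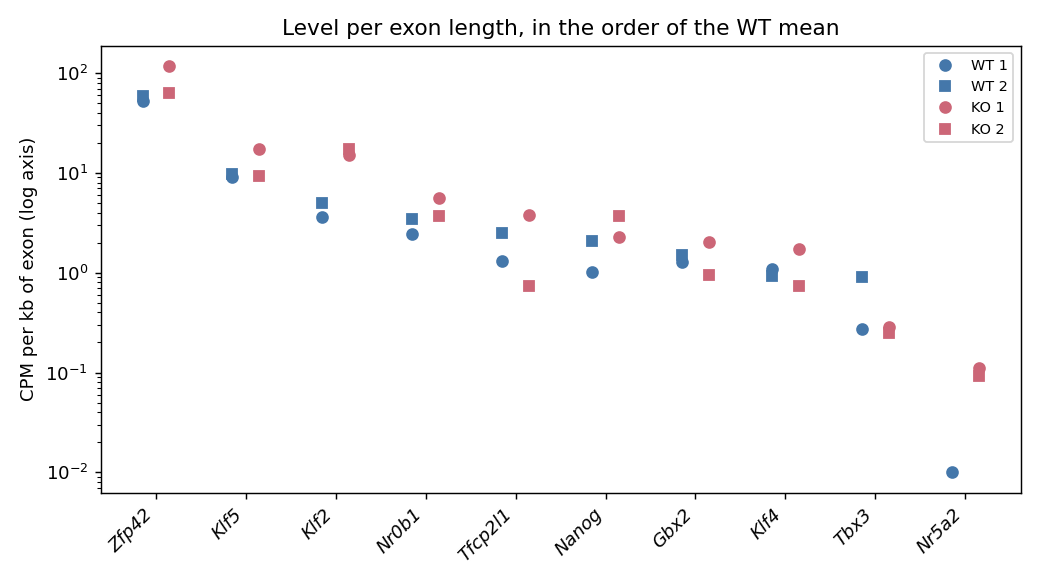
CPM per kb of merged exon (log axis) for each factor in each embryo, ordered by the WT mean; blue is WT, red is KO, circles are replicate 1 and squares replicate 2. The WT 2 value of Nr5a2, at 0, cannot be drawn on this axis; Klf2 in the KO embryos reaches the level of Klf5.

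No factor passed the test of KO against WT: by edgeR's quasi-likelihood test, 0 of 10 had an adjusted p under 0.05, where 0% of the 15563 genes tested did. DESeq2 called 1 of the 10 (Klf2) and 1.6% of the 14959 genes to which it gave an adjusted p, and limma-voom called 0 of the 10. At an unadjusted p under 0.05, edgeR gave 1 factor higher (Klf2) and 0 lower, beside 4.74% of genes higher and 3.08% lower. In 9 of 10 factors the fitted value was higher in KO, beside 47.7% of all genes. The median log2 fold change was 0.58, beside -0.03 for all genes. Both values include Nr5a2, whose direction was fixed by the low-count filter, and the tally without it follows.

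Both KO embryos lay above both WT embryos in 5 of 10 factors (Klf2, Nanog, Zfp42, Nr0b1 and Nr5a2), beside 19.4% of genes tested, and below both in 0, beside 18.8%. Nr5a2 passed the low-count filter only through the KO embryos, so its direction was fixed by the filter. Of the other 9 factors, 8 had higher values in KO, 4 had both KO embryos above both WT embryos, and the median log2 fold change was 0.50. The KO embryos did not contribute alike. KO replicate 1 was above both WT embryos in 9 factors (34.5% of genes) and below both in 0 (31.6%). KO replicate 2 was above both in 5 (34.4%) and below both in 4 (40.8%), and the latter count is near the share over all genes. The median log2 difference over the factors was 1.12 and 0.75 for KO replicate 1 against WT replicates 1 and 2, and 0.15 and 0.00 for KO replicate 2. Without KO replicate 1 the median fold change was 0.16, and without KO replicate 2 it was 0.91. The fitted value was higher in KO for 6 of 10 factors without KO replicate 1, 7 without WT replicate 1, 7 by limma-voom and 8 with the replicate block.

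**Figure D2:**
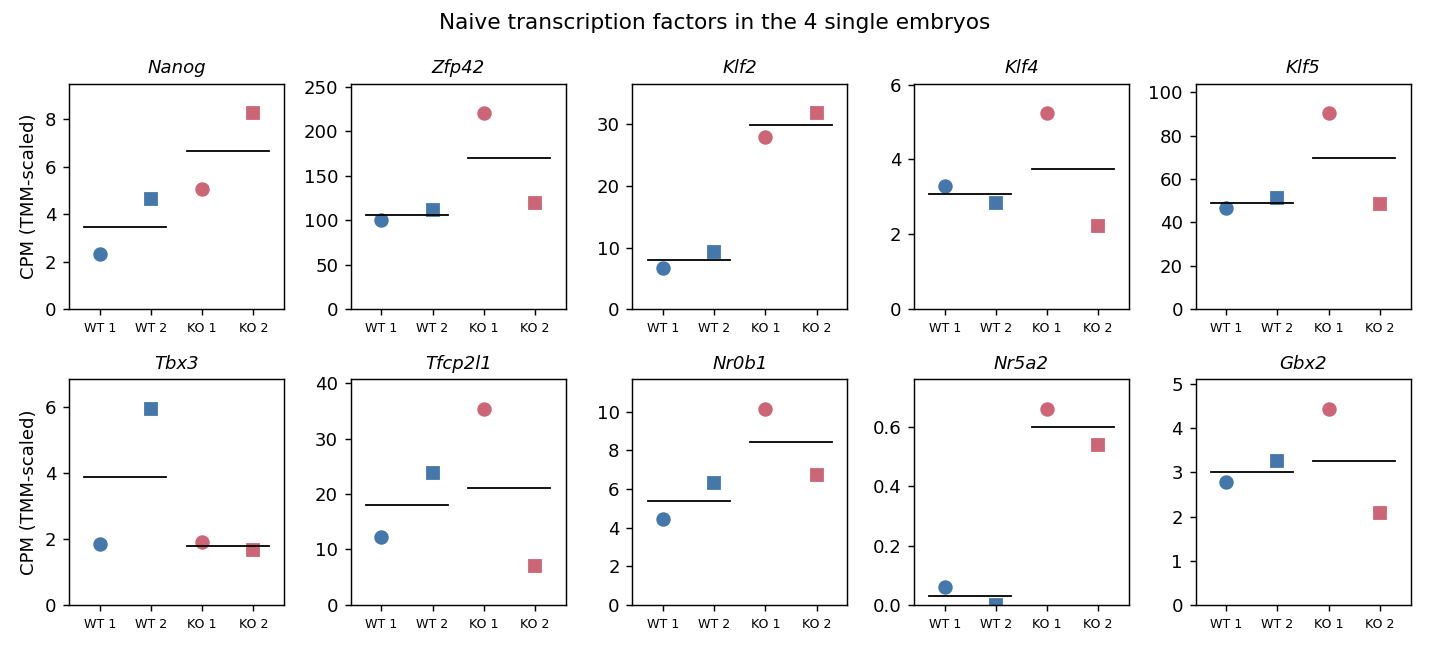
CPM of each factor in the 4 embryos, each panel on its own linear axis from 0; points are embryos and the line is the mean of the 2 embryos of a group. Klf2 is high in both KO embryos, Zfp42, Klf5, Klf4, Gbx2 and Tfcp2l1 mainly in KO 1, and Tbx3 is high in WT 2 alone.

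The Kruppel-like factors Klf2, Klf4 and Klf5 bind CACCC and GC boxes with closely related zinc fingers and can stand in for each other in stem cells. Klf2 (ENSMUSG00000055148, chr8:72319033-72321656) had 6.72 and 9.24 CPM in the WT embryos and 27.9 and 31.9 CPM in the KO embryos. The groups were far apart, and the embryos within each were close: KO replicates 1 and 2 stood at 3.50 and 3.99 times the WT mean, while the WT embryos differed 1.38-fold. Fitted by edgeR, Klf2 differed by 1.90 on the log2 scale (SE 0.42, 2 embryos per group), rank 92 of 15563 genes by p, with an edgeR adjusted p of 0.303, a DESeq2 adjusted p of 0.00628 and a limma-voom adjusted p of 0.305. With 1 embryo left out the log2 fold change of Klf2 ran from 1.71 to 2.16, and it was 2.08 without KO replicate 1.

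Klf5 (chr14:99298691-99315036) had 46.8 and 51.2 CPM in WT, against 90.4 and 48.5 CPM in KO. Only KO replicate 1 was outside the WT range, and the log2 fold change was 0.50 (SE 0.40, adjusted p = 0.854). Klf4 (chr4:55527143-55532466), one of the reprogramming factors, had 3.30 and 2.83 CPM in WT, against 5.24 and 2.22 CPM in KO. KO replicate 1 was above and KO replicate 2 below both WT embryos, and the log2 fold change of 0.28 (SE 0.70) became -0.38 without KO replicate 1.

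Nanog and Zfp42 are direct targets of Oct4 and Sox2. Nanog (ENSMUSG00000012396, chr6:122707489-122714633), the homeobox factor that guards the naive epiblast and returns in the posterior epiblast later, had 2.30 and 4.65 CPM in WT, against 5.05 and 8.25 CPM in KO. The groups did not overlap, but WT replicate 2 and KO replicate 1 were close and the WT embryos differed 2.02-fold. Its log2 fold change was 0.94 (SE 0.63, adjusted p = 0.809). Nanog was the only factor other than Klf2 with its highest value in KO replicate 2. The Nanog pseudogenes Nanog-ps1 and Nanog-ps2 had 0 counts in all 4 libraries.

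Zfp42 (ENSMUSG00000051176, chr8:43295063-43306980) had 99.6 and 112 CPM in WT, against 220 and 119 CPM in KO. KO replicate 1 was at 2.08 times the WT mean and KO replicate 2 at 1.12 times, nearer to WT replicate 2 than WT replicate 1 was. The log2 fold change of 0.68 (SE 0.37, adjusted p = 0.753) was 0.25 without KO replicate 1. Reads of the pseudogene Zfp42-ps1, which was not matched to a row of the table, may be among those of Zfp42.

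The nuclear receptors Nr0b1 (Dax1), a repressor that binds Oct4 and Nr5a2, and Nr5a2 (Lrh1), an activator of Oct4 in the epiblast, were at low levels. Nr0b1 (chrX:86191764-86195947) had 4.42 and 6.31 CPM in WT, against 10.2 and 6.75 CPM in KO. The groups were separated by a narrow gap between WT replicate 2 and KO replicate 2, and the log2 fold change was 0.65 (SE 0.53, adjusted p = 0.859). Nr0b1 is on the X chromosome: the Y-linked genes Ddx3y, Eif2s3y and Kdm5d had 0 counts in all embryos, Uty was given 4 and 1 counts in WT, against 5 and 0 in KO, and Xist, which silences 1 X in females, had 202 and 59.8 CPM in WT, against 69.6 and 6.06 CPM in KO. The part of X dosage in the Nr0b1 values was not tested.

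Nr5a2 (chr1:136842571-136960448) was seen with 1 and 0 counts in WT and with 14 and 15 in KO, or 0.661 and 0.538 CPM in KO. Over the groups, 29 counts against 1 gave a ratio of 21.1, with a 95% exact conditional interval of 3.50 to 861 that covers counting error only and is no test of the groups. Its adjusted p was 0.696, and DESeq2 gave none.

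Tfcp2l1 and Tbx3 relay LIF and related signals to the network, and Gbx2 is a homeobox target of STAT3. Tfcp2l1 (chr1:118627945-118685168) had 12.3 and 23.7 CPM in WT, against 35.4 and 6.92 CPM in KO. The KO embryos lay on opposite sides of both WT embryos, 5.11-fold apart, the widest gap between KO embryos among the 10. The log2 fold change of 0.23 (SE 0.71) became -1.30 without KO replicate 1 and 0.98 without KO replicate 2.

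Tbx3 (chr5:119670669-119684724), a T-box repressor, had 1.83 and 5.93 CPM in WT, against 1.89 and 1.65 CPM in KO. WT replicate 2 stood alone, at 3.25 times the level of WT replicate 1, and WT replicate 1 was between the KO embryos. The log2 fold change of -1.13 (SE 0.80, adjusted p = 0.826) was -0.04 without WT replicate 2. Tbx3 also has a known role in extraembryonic endoderm, and summed visceral endoderm markers were highest in WT replicate 2 too, at 4189 CPM against 2767 in WT replicate 1 and 1869 and 1519 in KO. Their part in the Tbx3 values was not tested. The antisense gene Tbx3os1, whose exons overlap those of Tbx3 over 115 bases, had 0 counts in all embryos.

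Gbx2 (chr1:89927956-89931179) had 2.77 and 3.26 CPM in WT, against 4.44 and 2.08 CPM in KO. As for Klf4, KO replicate 1 was above and KO replicate 2 below both WT embryos, and the log2 fold change of 0.11 (SE 0.70) became -0.45 without KO replicate 1, -0.01 without WT replicate 1 and -0.04 by limma-voom. Its exons overlap D130058E05Rik on the opposite strand over 946 bases. That gene was given 12 and 51 counts in WT, against 17 and 20 in KO. How reads of the shared bases were assigned is not known, so these counts set no limit to the uncertainty of Gbx2.

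**Figure D3:**
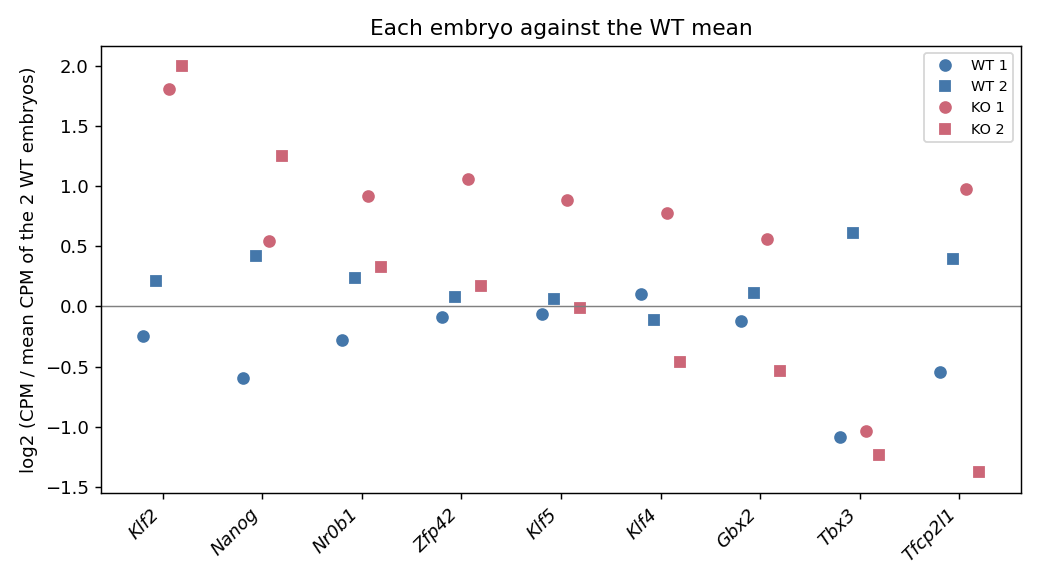
Each embryo's CPM over the mean of the 2 WT embryos, on the log2 scale, ordered by KO replicate 2; Nr5a2 is left out because a WT embryo is at 0. KO 1 is above both WT embryos in each factor drawn but Tbx3, while KO 2 runs from 3.99 times the WT mean for Klf2 to 0.384 of it for Tfcp2l1.

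Of 14 other naive-state genes 12 were tested and 0 passed, with 9 higher and 3 lower in value and a median log2 fold change of 0.25. Pecam1, a surface protein found on inner cell mass and endothelial cells, had 0.531 and 1.02 CPM in WT, against 7.74 and 8.25 CPM in KO. Its KO embryos were close together, as for Klf2, but the WT values rest on 9 and 19 counts. Tet2, a DNA demethylation enzyme, had 3.83 and 4.81 CPM in WT, against 17.8 and 7.25 CPM in KO, and Tdh, a threonine-catabolic enzyme of stem cells, 7.13 and 14.9 against 18.4 and 22.2. Dppa3 (Stella) went the other way, with 24.2 and 24.5 CPM in WT, against 4.67 and 13.6 CPM in KO. Prdm14, a repressor of FGF signalling in naive cells, had 0 counts in all 4 embryos.

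In LIF-STAT3 signalling all 10 genes were tested and 0 passed, with 8 higher and 2 lower in value (median 0.70). Jak2, a kinase of the receptor complex, had 5.78 and 7.05 CPM in WT, against 30.4 and 9.29 CPM in KO. Jak1 had 39.3 and 41.3 against 71.8 and 49.4, and the STAT3 target Pim1 had 1.95 and 1.50 against 4.53 and 2.33. As with Zfp42, KO replicate 1 was the high embryo. Pim3, another target, had 29.9 and 59.5 CPM in WT, against 33.5 and 19.5 CPM in KO.

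A list of 17 genes tied to the end of the naive state held factors that help to end it and also Tfe3, which Flcn acts against. All 17 were tested and 0 passed, 11 were higher and 6 lower in value, and the median was 0.34. As the roles are mixed, this tally has no single direction of meaning. Both KO embryos were above both WT embryos in 5 of the 17 (19.4% of all genes) and below both in 2 (18.8%). Flcn, folliculin, which keeps Tfe3 out of the nucleus, had 19.2 and 24.8 CPM in WT, against 13.1 and 13.9 CPM in KO. Tfe3 had 65.4 and 53.2 against 71.7 and 108. Mbd3, with the smallest p of the list, had 202 and 262 CPM in WT, against 261 and 494 CPM in KO. Tsc1 had 7.07 and 5.66 against 12.2 and 10.2. Of the 6 core factors 0 passed (median 0.17): Sox2 had 31.5 and 17.7 CPM in WT, against 45.7 and 40.2 CPM in KO, while the KO values of Pou5f1, 20.7 and 63.0, lay on either side of the WT values of 28.4 and 47.5.

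Formative and primed epiblast genes, which take over after implantation, had 9 of 12 tested lower in value (median -0.33), and 0 passed. Sox3 had 54.3 and 48.7 CPM in WT, against 24.7 and 22.6 CPM in KO, and Otx2 had 101 and 110 against 46.5 and 61.1. Both KO embryos were thus below both WT embryos in these genes, as in 5 of the 12 (18.8% of all genes). In 2 of the 12 both KO embryos were above both WT embryos (19.4% of all genes). Fgf5, with 71.2 and 92.9 against 42.7 and 107, overlapped.

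Markers of other cell types and of a stress-type response were read beside the factors. Immediate early genes, to which Klf2 and Klf4 are also counted in many cells, summed to 436 and 508 CPM in WT, against 1061 and 595 CPM in KO; 0 of 15 passed, and 9 had both KO embryos above both WT embryos, beside 19.4% of all genes. Egr1 had 4.42 and 2.40 CPM in WT, against 72.2 and 18.8 CPM in KO, and Fos 14.1 and 9.83 against 77.7 and 20.8. Myc had 86.7 and 138 CPM in WT, against 336 and 233 CPM in KO, so that both KO embryos were above both WT embryos in these 3 genes and KO replicate 1 was the highest. The part of such a response in the values was not tested.

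Endothelial markers summed to 42.6 and 54.9 CPM in WT, against 86.4 and 77.7 CPM in KO, with 9 of 12 tested and 0 passed. Of the defining genes Cdh5 was at 0 counts in each WT embryo (3 counts over the group would be 0.0841 CPM) and at 37.1 and 8.43 CPM in KO, Emcn had 0 counts in all embryos and Tie1 was at most 0.825 CPM. Esam had 0 and 0.16 CPM in WT, against 5.67 and 4.70 CPM in KO, and Cldn5 had 1.06 and 1.02 CPM in WT and 0 counts in KO. The part of endothelial or endothelial-type cells in the Klf2 values was not tested.

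Extraembryonic ectoderm markers summed to 796 and 912 CPM in WT, against 1367 and 785 CPM in KO, so that KO replicate 1 was highest here too; 12 of 12 were tested and 0 passed. The defining gene Elf5 had 118 and 143 CPM in WT, against 155 and 102 CPM in KO, and Eomes 193 and 241 against 332 and 193. Cdx2, also a defining gene, did not follow the sum: WT replicate 2 was its highest embryo and WT replicate 1 its lowest. Both KO embryos were above both WT embryos in 3 of the 12 (19.4% of all genes). They were below both in 1, Sox21 (18.8% of all genes). Markers of the ectoplacental cone and giant cells summed to 504 and 861 CPM in WT, against 2073 and 1309 CPM in KO, with 0 of the 6 tested passing. Of their defining genes, Hand1 had 151 and 262 CPM against 519 and 469, and Prl3d1 had 0 and 0.695 against 322 and 46.5. The third, Tpbpa, was at 0 in all embryos. The part of these tissues in the levels of Zfp42 and Klf5 was not tested.

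Visceral endoderm markers were lower in value in KO for 13 of 14 tested genes, with both KO embryos below both WT embryos in 11 (18.8% of all genes), a median of -1.98 and 0 passed. The defining genes Ttr and Hnf4a had 68.7 and 173 CPM in WT, against 13.7 and 25.7 CPM in KO, and 4.36 and 15.7 against 2.79 and 1.61. Maternal decidua markers, from the uterine tissue around the embryo, summed to 21.5 and 28.6 CPM in WT, against 11.4 and 10.2 CPM in KO. Of these 11 genes 6 were tested and 0 passed, with a median of -2.76. In 5 both KO embryos were below both WT embryos (18.8% of all genes). Hoxa10 and Col1a2 passed the low-count filter only through the WT embryos, so their direction was fixed by the filter. Both enter that count and that median. Hoxa10, a uterine homeobox gene, had 0.884 and 4.97 CPM in WT and 0 counts in KO, the defining Pgr had 3.60 and 1.50 CPM against 0.85 and 0.431, and Prl8a2 was at 0 except for 0.378 CPM in KO replicate 1. Dcn, decorin, had 8.49 and 15.1 CPM in WT, against 1.32 and 0.718 CPM in KO. Wt1, the 1 tested marker of this list with a higher value in KO, went the other way. It had 2.30 and 1.02 CPM in WT, against 6.52 and 4.66 CPM in KO, and made up a large part of the KO sums. The part of these tissues in the values of the factors was not tested.

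Libraries were also scaled to the epiblast genes Pou5f1, Tdgf1 and Utf1 in place of TMM. The median of the factors was then 0.69 and that of all genes -0.05. In 9 of 10 factors values were higher in KO, among them Nr5a2, whose direction was fixed by the low-count filter. That scaling does not separate epiblast RNA from RNA of other tissues.

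**Figure D4:**
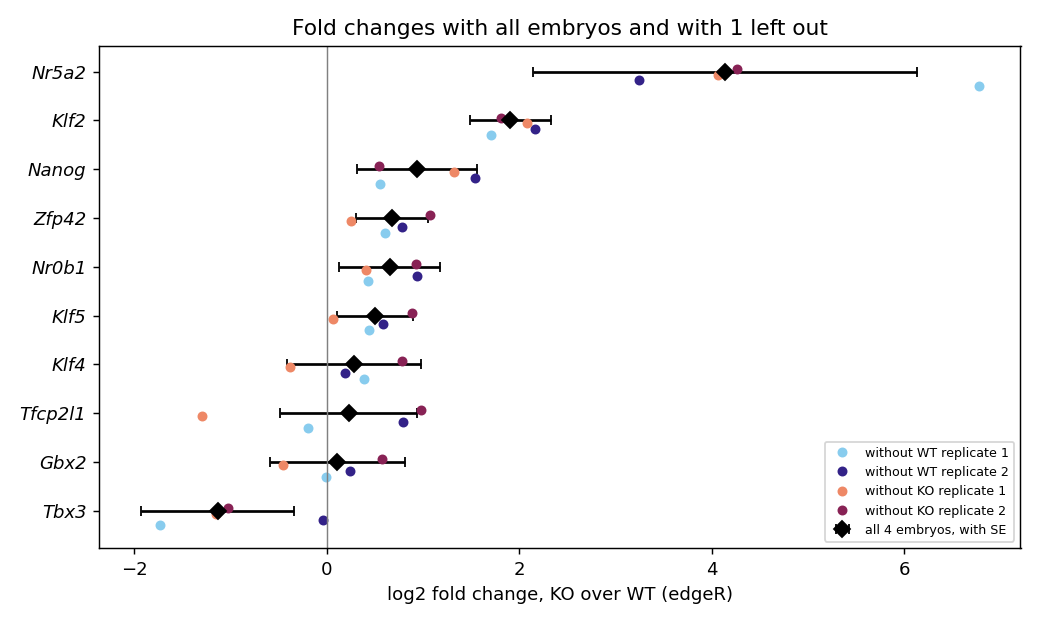
Log2 fold change of each factor, KO over WT, by edgeR: black diamonds with SE bars use all 4 embryos, and coloured points leave out 1 embryo each. Klf2 stays between 1.71 and 2.16, while Klf4, Tfcp2l1 and Gbx2 cross 0 when KO replicate 1 is left out. Without WT replicate 1, Tfcp2l1 (-0.19) and Gbx2 (-0.01) are below 0 too.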

How the data were processed

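The deposited values are whole-number read counts per gene, without normalisation, from 4 polyA libraries amplified with a Smart-Seq v4 kit, per the labels' protocols. TopHat, Cufflinks and mm10 are named per the submitters' processing notes, without version or role; for the counter, its strand setting and the annotation, names were not given in the sources used here. No strand information is kept by Smart-Seq. Positions, exon lengths and symbols came from GENCODE M21; 1311 rows had no match there.

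KO was compared with WT by edgeR 4.0.16 (R 4.3.3): filterByExpr (minimum count 10, minimum total 15), TMM, robust dispersion estimates and quasi-likelihood F tests, with Benjamini-Hochberg adjustment over 15563 genes and a threshold of 0.05. The SE was taken as |log2 fold change| over the square root of F, and restates that test. The log2 CPM used for correlations and for differences between embryos had a prior count of 2. Each p-value rests on the spread among the embryos fitted, 4 in the main fit, with variance estimates that also borrow from other genes. The members and lists were chosen with earlier results of these data known. Motifs were searched as letters, and the MEF2 consensus by its degenerate form; that motif was added after the Klf2 window was seen. Besides the factors, up to 4 genes of a list with the smallest p and at least 1 CPM in the higher group, and defining markers, could be named; Prdm14 was added because it had 0 counts in all embryos. Alternatives were DESeq2 1.42.0, limma-voom (limma 3.58.1), other scalings and filters, each embryo left out in turn, and a replicate block. The fits were tested on simulated data.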

Additional observations from a re-analysis of the deposited data

How the results depend on the processing

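With edgeR and all 4 embryos, 0 genes were higher and 0 lower past the threshold (smallest adjusted p 0.245), and 738 and 479 had an unadjusted p under 0.05. DESeq2 gave 150 higher and 90 lower, and no low-count filter 157 and 101; each called 1 of the factors, Klf2, at 1.91. With 1 embryo left out there were 14 to 133 genes higher and 1 to 209 lower, and 0 to 1 factors called. The lone embryo of a group is then assumed to vary like the other group. Nothing in the labels ties equal replicate numbers to 1 litter or day, and no pairing was assumed; the difference between the WT replicates correlated at 0.329 across genes with that between the KO replicates. With the replicate block 52 genes were higher and 19 lower, 0 factors were called, and Tfcp2l1 was at -0.12. The median of the factors ran from 0.16 to 0.91 with 1 embryo left out. Fold changes changed sign for Tfcp2l1 (-0.20 by limma-voom, -0.19 without WT replicate 1, -1.30 without KO replicate 1), Gbx2 (-0.04 by limma-voom, -0.01 without WT replicate 1, -0.45 without KO replicate 1) and Klf4 (-0.38 without KO replicate 1); without KO replicate 2 they were 0.98, 0.57 and 0.78, and the cause was not tested. The signs of Nanog, Zfp42, Klf2, Klf5, Tbx3 and Nr0b1 held in each fit that included the gene. Nr5a2 is not counted with them, since it passed the low-count filter only through the KO embryos. Leaving Nr5a2 out of the list, chosen after seeing the data, gave a median of 0.50. With at least 50 counts in 2 libraries, 8 of the 10 factors were fitted. Counts of 1 and 0 limit Nr5a2 in WT.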

Other observations

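Among 14 zinc-finger relatives of the Klf factors 13 were tested and 0 passed, with 10 higher and 3 lower in value and a median log2 fold change of 0.56. Klf11, a TGF-beta-inducible factor, had 5.13 and 5.08 CPM in the WT embryos and 19.6 and 20.0 CPM in the KO embryos, with a log2 fold change of 1.96 (SE 0.44, edgeR adjusted p = 0.308). The embryos of each group were close together for Klf11, as for Klf2, but 2 embryos per group give no measure of likeness. Klf9 had 46.6 and 35.3 CPM in WT, against 73.1 and 65.7 in KO, Klf13 had 48.0 and 41.7 against 69.1 and 103, and Klf3 had 21.9 and 19.2 against 30.2 and 32.5. In 6 of the 13, both KO embryos lay above both WT embryos, beside 19.4% of all genes.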
